A study of Mus musculus with 15 samples.

Results

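The genes described here encode secreted ligands of the transforming growth factor beta (TGF-beta) family and proteins that hold the pathway back. They are 10 of the 13657 genes in the deposited table, taken by symbol: the ligand genes Tgfb1, Tgfb2, Tgfb3, Inhba, Gdf15 and Bmp4, the inhibitory Smad genes Smad6 and Smad7, and the corepressor genes Skil and Tgif1. None of their measured values decided the choice of a gene, although the list was drawn up with earlier results of these data known. All 10 passed the filter on low values, and the lowest value of any of them in any library was 4.18 FPKM (fragments per kilobase of transcript, scaled to the size of the library).

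TGF-beta family ligands are secreted, often in a latent form, and bind pairs of receptor kinases that phosphorylate Smad transcription factors. The TGF-beta and activin branch signals through Smad2 and Smad3, the bone morphogenetic protein (BMP) branch through Smad1, Smad5 and Smad9. The inhibitory Smads and the corepressors are themselves induced by the pathway and dampen it, and in the heart TGF-beta signalling is best known for its role in fibrosis and in the response to load.

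Poly(A) RNA came from neonatal cardiac myocytes of C57BL/6 mice cultured on a silicone (PDMS) membrane. The control cells were not stretched, and the other groups were held under static biaxial stretch of 14% along the primary axis and 3.6% along the orthogonal axis. The primary axis was transverse or longitudinal, and stretch lasted 30 min or 4 h, which gave 5 groups of 3 libraries (A, B and C), each from a stretch device of its own that the design text calls a biological replicate. Which animals or cell preparations the devices shared is not stated in the sources, so the p-values measure the spread between devices.

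Markers of cardiac myocytes dominated the libraries: 9 of the 10 listed were in the table and summed to between 15225 and 21256 FPKM per library, with Tnnt2 not analysed here. The cultures also held RNA of other cell types: 10 fibroblast markers summed to between 2062 and 2786 FPKM, 8 macrophage and leukocyte markers to between 327 and 496, 8 endothelial markers to between 27.04 and 57.02, and 6 mesothelial markers to between 15.1 and 23.4. None of the markers in the table was at 0 in any library. In such bulk RNA, more cells of a type and more RNA per cell cannot be told apart. Absolute depth is unknown from FPKM; relative depth, read from the steps of the lowest values, ran from 0.671 in transverse 30 min B to 1 in transverse 30 min A, and 0 of the 10 genes was at 0 in any library.

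Libraries that stood apart within their group touched most of the values below. Transverse 30 min B had the lowest mean correlation with its own group (0.968, over 12114 genes), and it ranked 1 of 15 for Inhba and 2 of 15 for Tgfb2, Gdf15, Bmp4, Smad6 and Smad7. Longitudinal 30 min C ranked 1 of 15 for Smad6 and Smad7 and 3 of 15 for Tgfb3, Inhba and Gdf15. Both of these libraries were high in the sum of 7 smooth muscle and pericyte markers, most of it from Acta2, Tagln and Cnn1. It was 1304 FPKM in transverse 30 min B and 1621 FPKM in longitudinal 30 min C. The other libraries of the 30 min groups lay between 421 and 852 FPKM. Transverse 30 min B and longitudinal 30 min C were also high in cardiac myocyte markers (20712 and 21256 FPKM) and in mesothelial markers (23.1 and 23.4 FPKM). No other library had higher sums for these lists. Longitudinal 4 h C ranked 1 of 15 for Tgfb1, Tgfb2, Tgfb3, Gdf15, Bmp4 and Skil and 2 of 15 for Inhba, with a relative depth of 0.777 and a smooth muscle and pericyte sum of 1581 FPKM. Its cardiac myocyte and mesothelial sums were 19472 and 20.5 FPKM. Some of the fold changes and correlations that these 3 libraries moved are also given without 1 or more of them.

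Promoter sequences are shown for the pair of ligand genes whose levels moved together across libraries with the widest spread, Tgfb2 and Inhba, and for Tgfb1, whose level hardly moved. Each is the 250 bases before the RefSeq start of the gene, 5′ to 3′ on the gene's strand, in build GRCm38.p6, with matches to the searched motifs in capitals.
Tgfb2, chr1:186705990-186706239, minus strand: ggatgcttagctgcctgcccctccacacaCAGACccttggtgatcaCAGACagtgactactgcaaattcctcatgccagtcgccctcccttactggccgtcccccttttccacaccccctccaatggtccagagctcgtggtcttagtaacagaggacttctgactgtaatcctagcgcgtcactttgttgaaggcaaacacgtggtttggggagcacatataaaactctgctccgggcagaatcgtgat
Inhba, chr13:16011601-16011850, plus strand: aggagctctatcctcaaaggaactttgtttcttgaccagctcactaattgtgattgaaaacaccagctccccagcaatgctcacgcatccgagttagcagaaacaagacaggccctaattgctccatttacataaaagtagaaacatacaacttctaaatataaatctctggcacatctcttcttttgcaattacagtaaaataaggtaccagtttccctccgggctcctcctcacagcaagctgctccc
Tgfb1, chr7:25686752-25687001, plus strand: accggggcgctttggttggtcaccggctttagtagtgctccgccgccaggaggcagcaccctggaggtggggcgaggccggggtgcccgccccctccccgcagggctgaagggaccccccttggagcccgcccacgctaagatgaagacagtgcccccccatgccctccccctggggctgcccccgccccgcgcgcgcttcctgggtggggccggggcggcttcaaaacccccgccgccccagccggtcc

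These stretches differed in composition, with a GC content of 53.6% for Tgfb2, 43.2% for Inhba and 75.2% for Tgfb1. The capitals in the Tgfb2 sequence mark the SMAD box CAGAC, at bases 30 to 34 and 47 to 51. The motifs were searched on both strands of windows of 300 bases that ran 50 bases past the start, and no motif contains another. A match to CAGAC was present in 49.6% of all 32851 RefSeq windows and in 6 of the 12 windows that matched 7 of the 10 genes, those of Tgfb2, Gdf15 (both windows) and Tgif1 (3 windows). Windows on chromosome 18, where Smad7 lies, were left out of the 12, and none of the 12 was of Tgfb3 or Skil. The counts thus do not cover Smad7, Tgfb3 or Skil. The TEAD motif GGAATG matched 1 of the 12, a Gdf15 window (14.7% of all windows). The AP-1 motif TGANTCA (7.81%), the CRE motif TGACGTCA (1.79%) and the BMP-SMAD motif GGCGCC (11.9%) matched 0 of the 12. A match is a string of letters and not a binding site.

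All ligand genes but Gdf15 had their highest group mean after 4 h of longitudinal stretch; for Tgfb2, Tgfb3 and Inhba every library of that group lay above every control, while the values of Tgfb1 and Bmp4 overlapped the control. Tgfb2 (chromosome 1, 188447065 to 188529871, build mm9, as for all gene positions below) encodes the TGF-beta isoform needed for heart valve and septum development. It was measured at 14.5, 7.65 and 11.0 FPKM in control A, B and C and at 40.1, 28.3 and 71.7 FPKM after 4 h of longitudinal stretch. After 4 h of transverse stretch it was at 14.6, 24.8 and 11.0 FPKM. After 30 min it was at 10.5, 51.8 and 7.23 FPKM under transverse and at 17.1, 11.8 and 35.97 FPKM under longitudinal stretch. All longitudinal 4 h libraries lay above all controls and all transverse 4 h libraries, while both 30 min groups overlapped the control and each held 1 high library. The log2 fold change of Tgfb2 after 4 h of longitudinal stretch was 1.92 ± 0.65 (SE), or 3.79-fold, and just missed the threshold (limma, adjusted p = 0.0549). Over the 15 fits that each left out 1 library, it ran from 1.57 to 2.22.

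**Figure D1:**
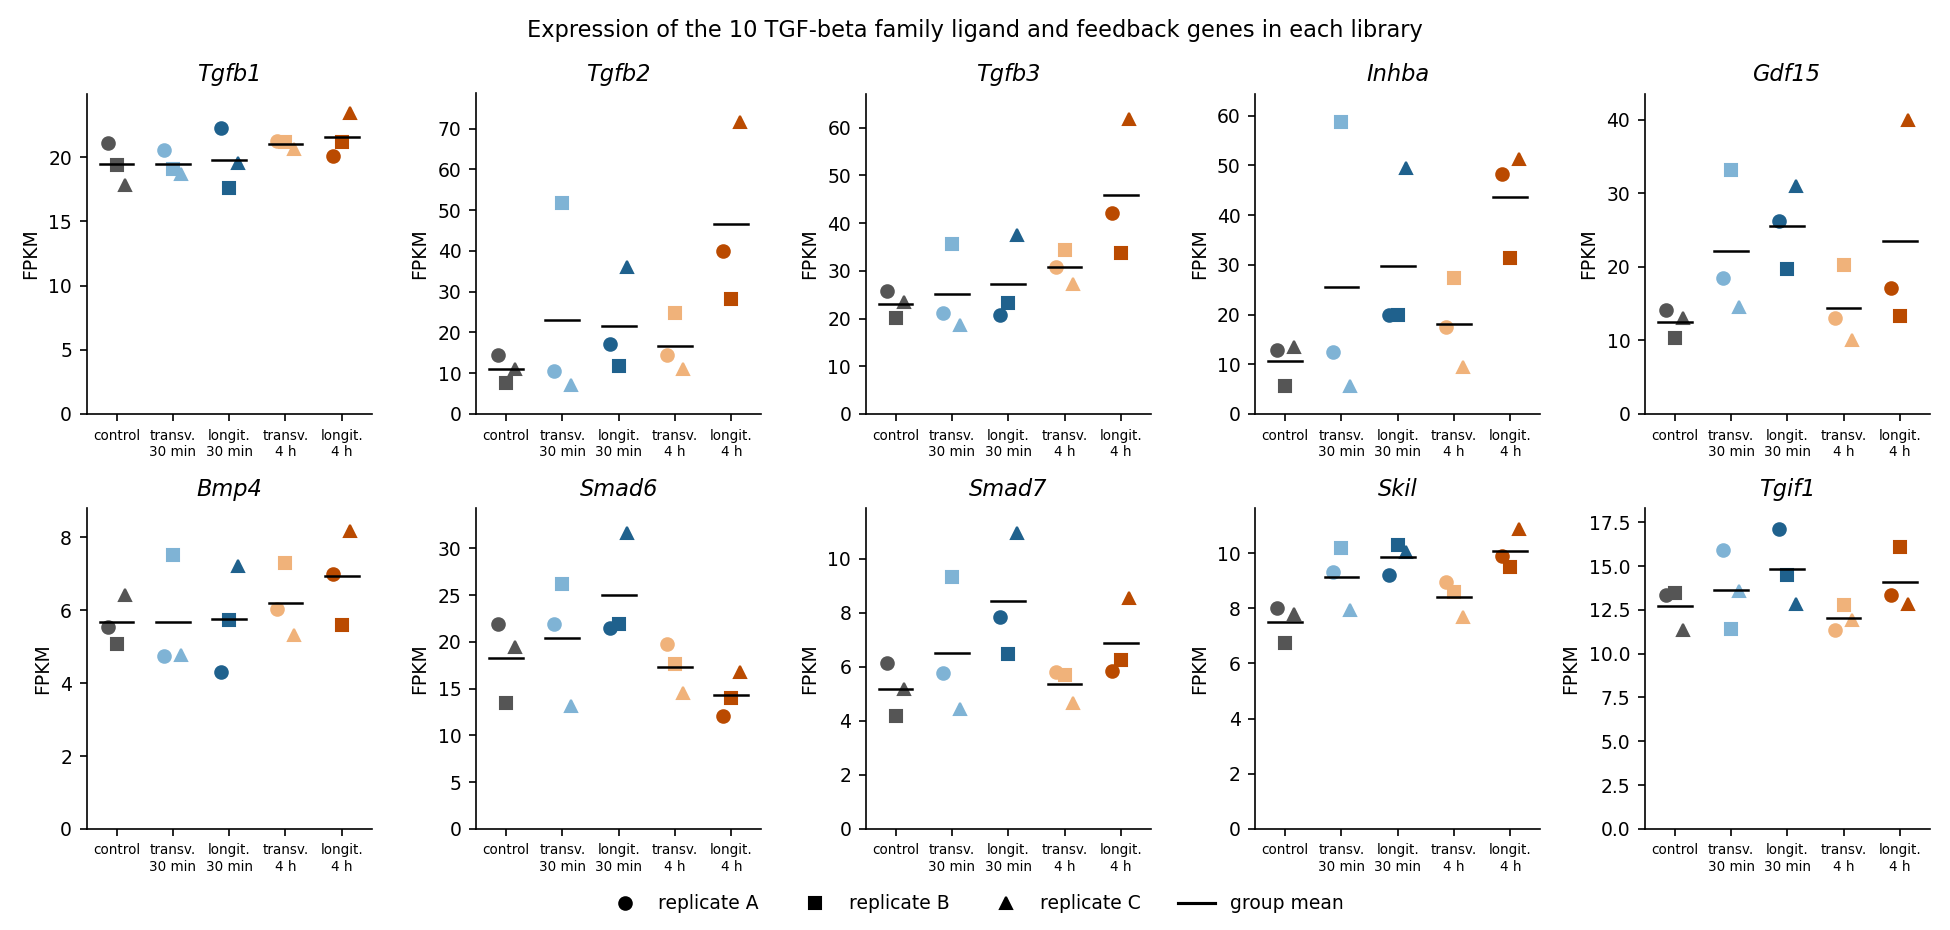
FPKM (y axis, from 0) of each of the 10 genes in all 15 libraries, by group on the x axis; circles, squares and triangles are libraries A, B and C and the bar is the mean of 3. Tgfb2, Tgfb3 and Inhba are highest in the longitudinal 4 h group, with transverse 30 min B (square) and longitudinal 30 min C (triangle) high within their groups, and Tgfb1 lies between 17.6 and 23.5 FPKM in every library.

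Inhba (chromosome 13, 16106308 to 16119044) encodes the beta A subunit, which pairs with itself to form activin A. It was at 12.9, 5.72 and 13.6 FPKM in the controls and at 48.2, 31.4 and 51.3 FPKM after 4 h of longitudinal stretch. At 30 min it was at 19.9, 20.0004 and 49.6 FPKM under longitudinal and at 12.5, 58.7 and 5.71 FPKM under transverse stretch. Every library of both longitudinal groups lay above every control, whereas the transverse 30 min group held both the lowest and the highest library of the gene. After 4 h of transverse stretch it was at 17.4, 27.3 and 9.35 FPKM, overlapping the control. The log2 fold change after 4 h of longitudinal stretch was 1.98 ± 0.70, or 3.95-fold (limma, adjusted p = 0.0651), and after 30 min it was 1.34 ± 0.70 (adjusted p = 0.590). Over the 15 fits that each left out 1 library, the value at 4 h ran from 1.62 to 2.19.

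Tgfb3 (chromosome 12, 87397693 to 87419991), the third TGF-beta isoform, known for its role in palate fusion, was the only ligand gene of the 10 that passed the test in any comparison. It was at 25.7, 20.1 and 23.4 FPKM in the controls, at 30.9, 34.3 and 27.1 FPKM after 4 h of transverse stretch and at 42.2, 33.7 and 61.8 FPKM after 4 h of longitudinal stretch. Both 4 h groups lay wholly above the control, and they overlapped each other. Tgfb3 rose by 0.93 ± 0.27 on the log2 scale after 4 h of longitudinal stretch, or 1.90-fold (limma, adjusted p = 0.0325). Leaving out 1 library ended this call for control B (adjusted p = 0.111), for control C, and for A or C of the longitudinal 4 h group (0.129 without C). With the replicate letter as a block in the limma fit the call was lost as well (adjusted p = 0.0563). At 30 min the gene was at 21.1, 35.7 and 18.7 FPKM under transverse and at 20.7, 23.3 and 37.5 FPKM under longitudinal stretch, where 1 library of each group stood above all controls. Without those libraries the 30 min log2 fold change moved from 0.07 to -0.20 under transverse and from 0.19 to -0.06 under longitudinal stretch.

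Tgfb1 (chromosome 7, 26472021 to 26490015), the isoform most studied in fibrosis, had nearly level values. Its group means were 19.5 ± 1.64 FPKM in control, 19.5 ± 0.977 after 30 min of transverse, 19.8 ± 2.32 after 30 min of longitudinal, 21.04 ± 0.337 after 4 h of transverse and 21.6 ± 1.74 after 4 h of longitudinal stretch (SD, n = 3 each). Neighbouring groups in this order overlapped, but every transverse 4 h library lay above every transverse 30 min library. Its highest library was 1.33 times its lowest, against 9.92 times for Tgfb2, 10.3 times for Inhba and 3.30 times for Tgfb3. The 95% interval of its log2 fold change after 4 h of longitudinal stretch ran from -0.04 to 0.33 (limma, adjusted p = 0.235).

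For Gdf15 the groups apart from the control were those of 30 min. Gdf15 (chromosome 8, 73153293 to 73155534) encodes a distant family member released under cell stress that signals through the receptor GFRAL in the brainstem. It was at 14.1, 10.3 and 13.1 FPKM in the controls, at 18.5, 33.2 and 14.6 after 30 min of transverse and at 26.2, 19.7 and 31.0 after 30 min of longitudinal stretch. Every 30 min library of either axis lay above every control. At 4 h it was at 13.1, 20.3 and 10.01 FPKM under transverse and at 17.1, 13.3 and 40.0 FPKM under longitudinal stretch, and both groups overlapped the control. The log2 fold change was 0.97 ± 0.39 after 30 min of longitudinal stretch (limma, adjusted p = 0.524) and 0.71 ± 0.39 after 4 h (adjusted p = 0.199). The value at 30 min was 0.82 without longitudinal 30 min C, and the value at 4 h was 0.26 without longitudinal 4 h C. Bmp4 (chromosome 14, 46999199 to 47010274), a BMP ligand of early mesoderm and heart development, was the lowest of the ligands, between 4.31 and 8.18 FPKM, with group means from 5.68 ± 1.60 to 6.93 ± 1.29 FPKM. Its groups overlapped throughout, and its log2 fold change after 4 h of longitudinal stretch was 0.24 ± 0.19 (adjusted p = 0.380).

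The inhibitory Smads were highest after 30 min of longitudinal stretch. Smad7 (chromosome 18, 75527019 to 75555588), which blocks receptor signalling and recruits ubiquitin ligases to the receptor, was at 6.15, 4.18 and 5.19 FPKM in the controls. It was at 7.83, 6.48 and 11.0 FPKM after 30 min of longitudinal stretch, above every control, and at 5.76, 9.34 and 4.45 FPKM after 30 min of transverse stretch. At 4 h it was at 5.79, 5.70 and 4.65 FPKM under transverse and at 5.84, 6.26 and 8.56 FPKM under longitudinal stretch, both overlapping the control. Its log2 fold change after 30 min of longitudinal stretch was 0.60 ± 0.23 (limma, adjusted p = 0.510), and 0.41 ± 0.24 without longitudinal 30 min C.

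Smad6 (chromosome 9, 63800883 to 63869866), which acts mainly on BMP signalling, had its highest mean after 30 min and its lowest after 4 h of longitudinal stretch. It was at 21.9, 13.4 and 19.4 FPKM in the controls, at 21.5, 21.9 and 31.6 after 30 min of longitudinal and at 12.04, 14.0 and 16.7 after 4 h of longitudinal stretch. The longitudinal groups did not overlap each other, but each of them overlapped the control. Under transverse stretch it was at 21.9, 26.2 and 13.1 FPKM at 30 min and at 19.7, 17.6 and 14.5 FPKM at 4 h. Between 30 min and 4 h of longitudinal stretch the log2 difference was -0.76 ± 0.24 (limma, adjusted p = 0.0900; -0.58 without longitudinal 30 min C, adjusted p = 0.221), and against control at 4 h it was -0.32 ± 0.24 (adjusted p = 0.360).

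Of the corepressor genes, Skil changed and Tgif1 did not pass the test. Skil (chromosome 3, 30993983 to 31021499) encodes SnoN, which binds Smad complexes and represses their targets. It was at 8.01, 6.74 and 7.78 FPKM in the controls, at 9.31, 10.2 and 7.93 after 30 min of transverse and at 9.19, 10.3 and 10.05 after 30 min of longitudinal stretch. At 4 h it was at 8.95, 8.60 and 7.67 FPKM under transverse and at 9.91, 9.50 and 10.9 FPKM under longitudinal stretch. Both longitudinal groups lay wholly above the control with little spread. Skil rose by 0.38 ± 0.09 on the log2 scale after 4 h of longitudinal stretch, or 1.30-fold (limma, adjusted p = 0.0150), a call lost without control B (adjusted p = 0.0672) or longitudinal 4 h C (0.0615). After 30 min of longitudinal stretch its log2 fold change was 0.35 ± 0.09 (limma, adjusted p = 0.193). Tgif1 (chromosome 17, 71193545 to 71202872), a homeobox repressor of Smad2 and Smad3 targets, ranged from 11.3 to 17.1 FPKM, and its groups overlapped the control in each comparison. Its log2 fold change was 0.20 ± 0.13 after 30 min and 0.13 ± 0.13 after 4 h of longitudinal stretch (adjusted p = 0.623 and 0.459).

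**Figure D2:**
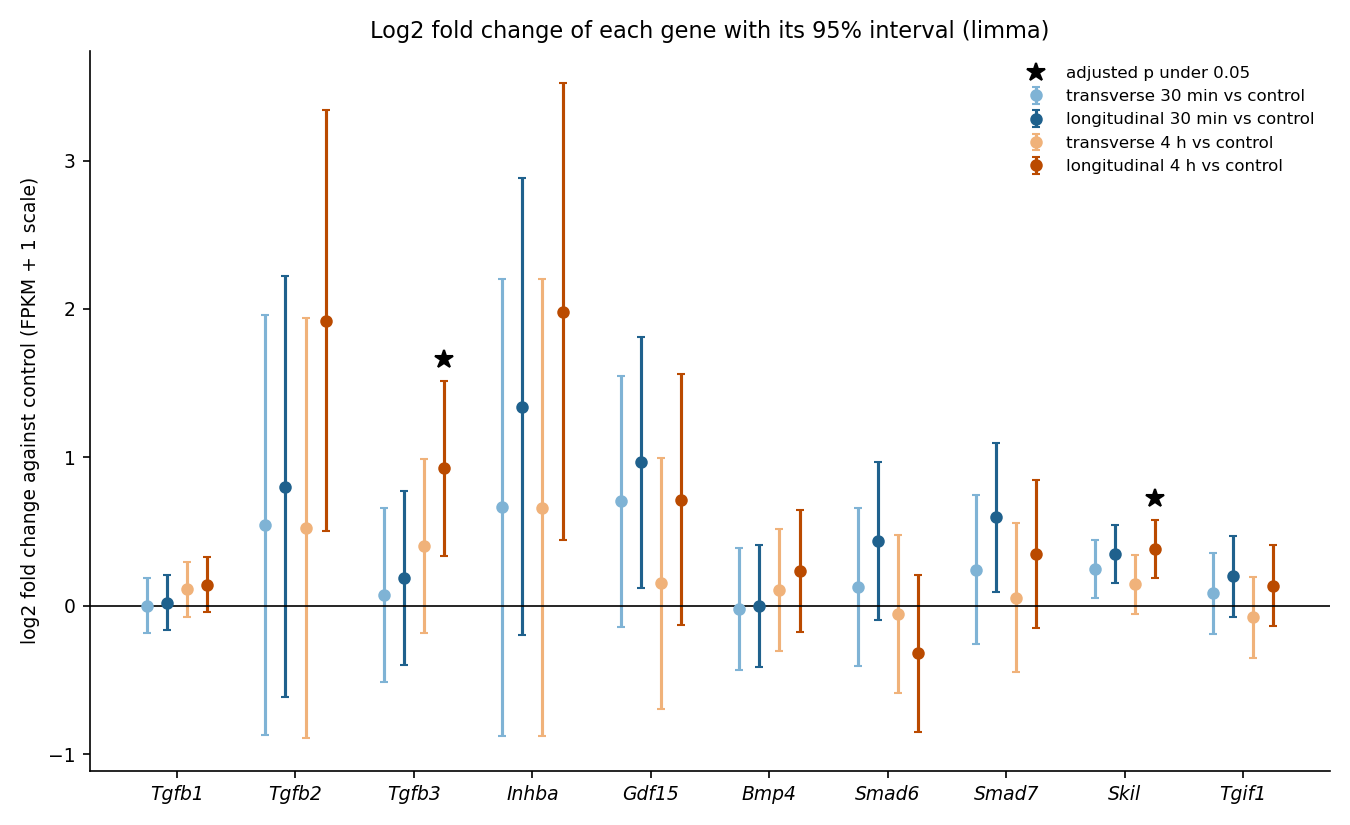
Log2 fold change against control on the FPKM + 1 scale (y axis) of each gene (x axis) in the 4 stretch groups, with 95% intervals from limma and a star where the adjusted p was under 0.05. The stars stand on Tgfb3 and Skil after 4 h of longitudinal stretch; the intervals of Tgfb2 and Inhba lie above 0 there but are the widest of the set.

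Counted over the 10 genes, 2 rose (Tgfb3 and Skil), 0 fell and 8 were not called after 4 h of longitudinal stretch, and 20.7% of all genes tested were called in that comparison, so the share among the 10 was close to the background. At an unadjusted p under 0.05 there were 4 (also Tgfb2 and Inhba), beside 37.4% of all genes. The same 4 genes had every longitudinal 4 h library above every control, beside 20.9% of all genes tested. The median log2 fold change of the 10 was 0.37, beside -0.01 for all genes, and 9 of the 10 were above 0, beside 48.2% of all genes. Without transverse 30 min B and longitudinal 30 min C together, which take no part in the contrast but in the shared estimate of spread, 4 of the 10 were called. The share of all genes called in that fit is not given here, so the 4 are not read as a result about the 10 genes. Without control B or longitudinal 4 h C, 0 were called. The count over all genes fell too, from 2503 to 789 and 1023.

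**Figure D3:**
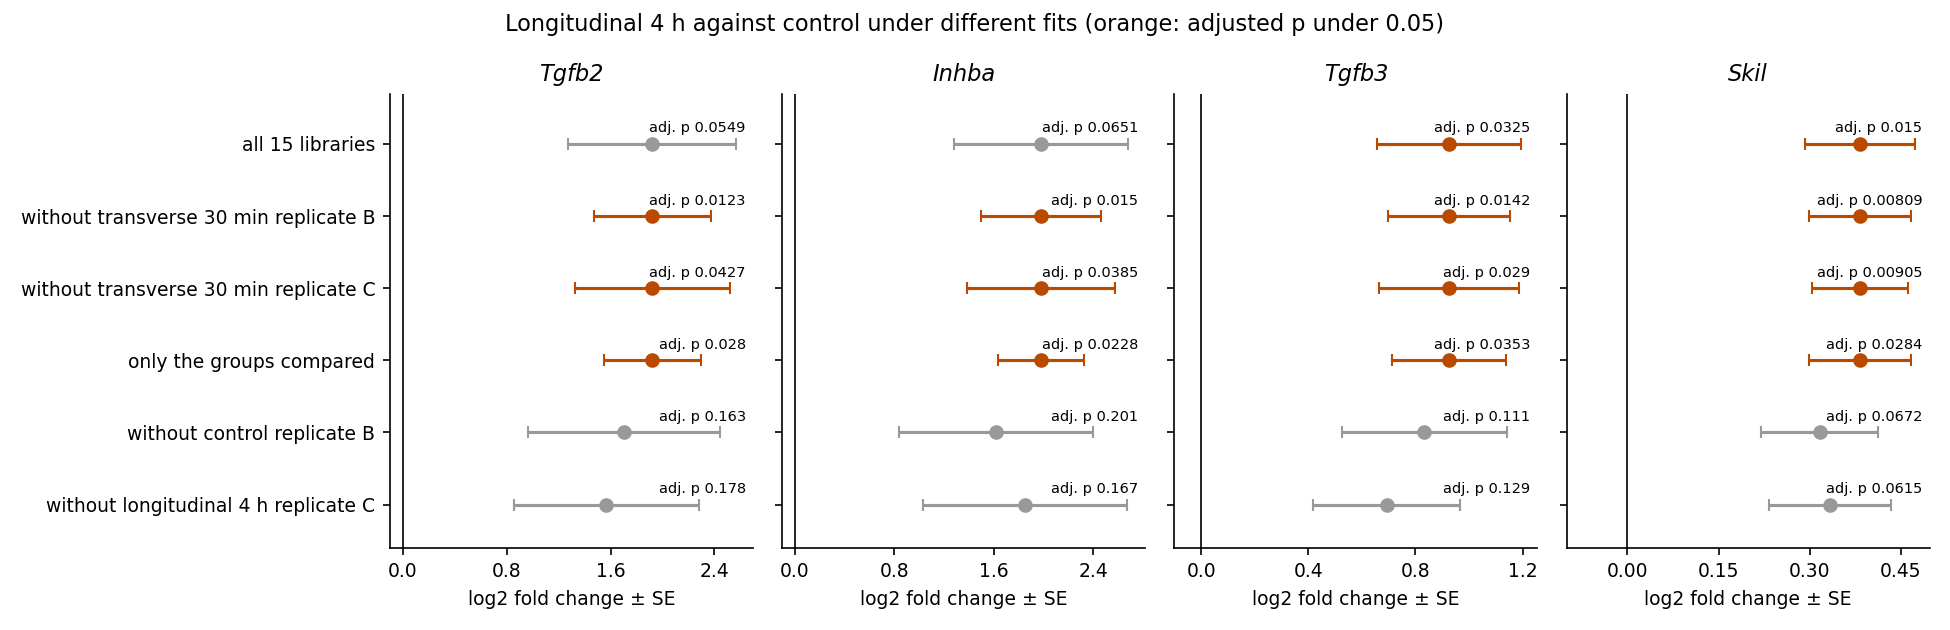
Log2 fold change ± SE (x axis) of Tgfb2, Inhba, Tgfb3 and Skil after 4 h of longitudinal stretch against control, for the fit of all 15 libraries and for 5 other fits (rows), in orange where the adjusted p was under 0.05. Leaving out transverse 30 min B moves the adjusted p of Tgfb2 from 0.0549 to 0.0123 and of Inhba from 0.0651 to 0.0150, and leaving out control B or longitudinal 4 h C puts each of the 4 genes above 0.05.

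After 4 h of transverse stretch limma called 0 of the 10, beside 0.0578% of all genes. At an unadjusted p under 0.05 there were 0, beside 10.6% of all genes. Tgfb3 was the 1 gene whose transverse 4 h libraries all lay above the controls, beside 10.9% of all genes. For the mean of both axes at 4 h, 0 of the 10 were called, beside 6.4% of all genes. In this comparison 2 had an unadjusted p under 0.05 (Tgfb3 and Skil), beside 26.4% of all genes. Called genes numbered 4 here without transverse 30 min B and longitudinal 30 min C together (Tgfb2, Tgfb3, Inhba and Skil). The count over all genes rose as well, from 775 to 1456.

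At 30 min limma called 0 of the 10 under either axis, beside 0.314% of all genes for transverse and 0.446% for longitudinal stretch. At an unadjusted p under 0.05 there was 1 for transverse stretch (Skil), beside 4.07% of all genes. For longitudinal stretch there were 3 (Gdf15, Smad7 and Skil), beside 8.93%. Every longitudinal 30 min library lay above every control for 4 of the 10 (Inhba, Gdf15, Smad7 and Skil), beside 10.6% of all genes. For transverse stretch this held for 1 (Gdf15), beside 4.08%. For the mean of both axes 0 of the 10 were called, beside 0.471% of all genes. In this comparison 2 had an unadjusted p under 0.05 (Gdf15 and Skil), beside 6.31% of all genes. Without transverse 30 min B the transverse log2 fold change of Inhba moved from 0.66 to -0.22, of Tgfb2 from 0.55 to -0.27 and of Smad7 from 0.24 to -0.01. Without longitudinal 30 min C the longitudinal value of Inhba moved from 1.34 to 0.92 and of Tgfb2 from 0.80 to 0.38.

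The study's title concerns the axis of stretch, and the axes were compared directly. At 4 h, 0 of the 10 were called between longitudinal and transverse stretch, beside 0.0165% of all genes. An unadjusted p under 0.05 was found for 1 of the 10, beside 25.7% of all genes. This was Skil, with a log2 difference of 0.24 ± 0.09 (limma, adjusted p = 0.147). In 5 of the 10 (Tgfb2, Inhba, Smad7, Skil and Tgif1) every longitudinal 4 h library nevertheless lay above every transverse one, beside 16.5% of all genes. The log2 difference was 1.396 ± 0.65 for Tgfb2, with a 95% interval from -0.02 to 2.81, and 1.32 ± 0.70 for Inhba, from -0.22 to 2.86. At 30 min 0 of the 10 were called between the axes, beside 0.0248% of all genes. There 0 had an unadjusted p under 0.05, beside 5.49% of all genes, and the largest log2 difference was 0.68 ± 0.70, for Inhba. The interaction of axis and duration called 0 of the 10, beside 0.0248% of all genes. For it 0 had an unadjusted p under 0.05, beside 5.13% of all genes. Both 4 h intervals include 0, and their upper ends lie above the size of either gene's change against control.

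Between 30 min and 4 h, 0 of the 10 were called for transverse stretch, beside 0.338% of all genes. At an unadjusted p under 0.05 there were 0, beside 12.4%. For longitudinal stretch 0 were called, beside 4.98% of all genes. There 2 had an unadjusted p under 0.05, beside 24.2% of all genes. These were Tgfb3, at a log2 difference of 0.74 ± 0.27 (limma, adjusted p = 0.126), and Smad6 as given above. Smad6 was the 1 gene of the 10 with every longitudinal 4 h library below every longitudinal 30 min library, beside 17.7% of all genes. Tgfb1 was the 1 gene with every transverse 4 h library above every transverse 30 min library, beside 9.77% of all genes.

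The authors' deposited table holds its own comparison of each stretch group with control, and it called more of these genes. The 4 comparisons share the 3 controls in both analyses. At q under 0.05 the authors' deposited table listed Gdf15 (q = 0.00259), Tgfb3 (1.06e-05), Tgfb2 and Inhba after 4 h of longitudinal stretch, the last pair with q given as 0, beside 5.82% of all genes. For 30 min of longitudinal stretch the authors' deposited table listed Inhba (q = 1.58e-10), Gdf15 (0.00017), Tgfb2 (0.000188) and Smad7 (0.0262), beside 1.23%. For 30 min of transverse stretch it was Inhba alone in the authors' deposited table (q = 0.00594, beside 0.388%), and for 4 h of transverse stretch 0 of the 10 (beside 0.256%). Skil, called by limma after 4 h of longitudinal stretch, had q = 0.246 in the authors' deposited table.

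The spread between libraries of a group differed widely among the 10 genes. The SD of log2(FPKM + 1) within groups was 0.916 for Inhba and 0.847 for Tgfb2, above 99.2% and 99.1% of all genes tested. It was 0.521 for Gdf15, 0.364 for Tgfb3, 0.330 for Smad6, 0.310 for Smad7 and 0.255 for Bmp4. Tgif1 was at 0.166, above 74.3% of all genes, and Skil (0.115) and Tgfb1 (0.106) lay near the median of all genes, 0.112. Without transverse 30 min B and longitudinal 30 min C the SD was 0.573 for Inhba, 0.514 for Tgfb2 and 0.253 for Tgfb3. Inhba and Tgfb2, which had the largest fold changes after 4 h of longitudinal stretch, were also the least alike among replicates.

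Across the 15 libraries Tgfb2 and Inhba varied together. Pearson's r of log2(FPKM + 1) was 0.950 over the 15 libraries, and 0.943 for the deviations from the group means; values of a library share its depth and preparation, so these are descriptions. The r of Tgfb2 with Tgfb3 was 0.918 and with Smad7 0.764, and with Tgfb1 0.422. Without transverse 30 min B and longitudinal 30 min C the r of Tgfb2 was 0.937 with Inhba, 0.938 with Tgfb3 and 0.638 with Tgfb1, over 13 libraries. Without longitudinal 4 h C as well it was 0.946, 0.883 and 0.456, over 12. Within groups, the deviations of Smad7 followed those of Tgfb2 at r = 0.940 and those of Smad6 at r = 0.909 (0.851 and 0.875 over the 13 libraries). Over the 12 libraries these were 0.768 and 0.891, and the r of Tgfb2 with Smad7 without regard to groups was 0.547.

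**Figure D4:**
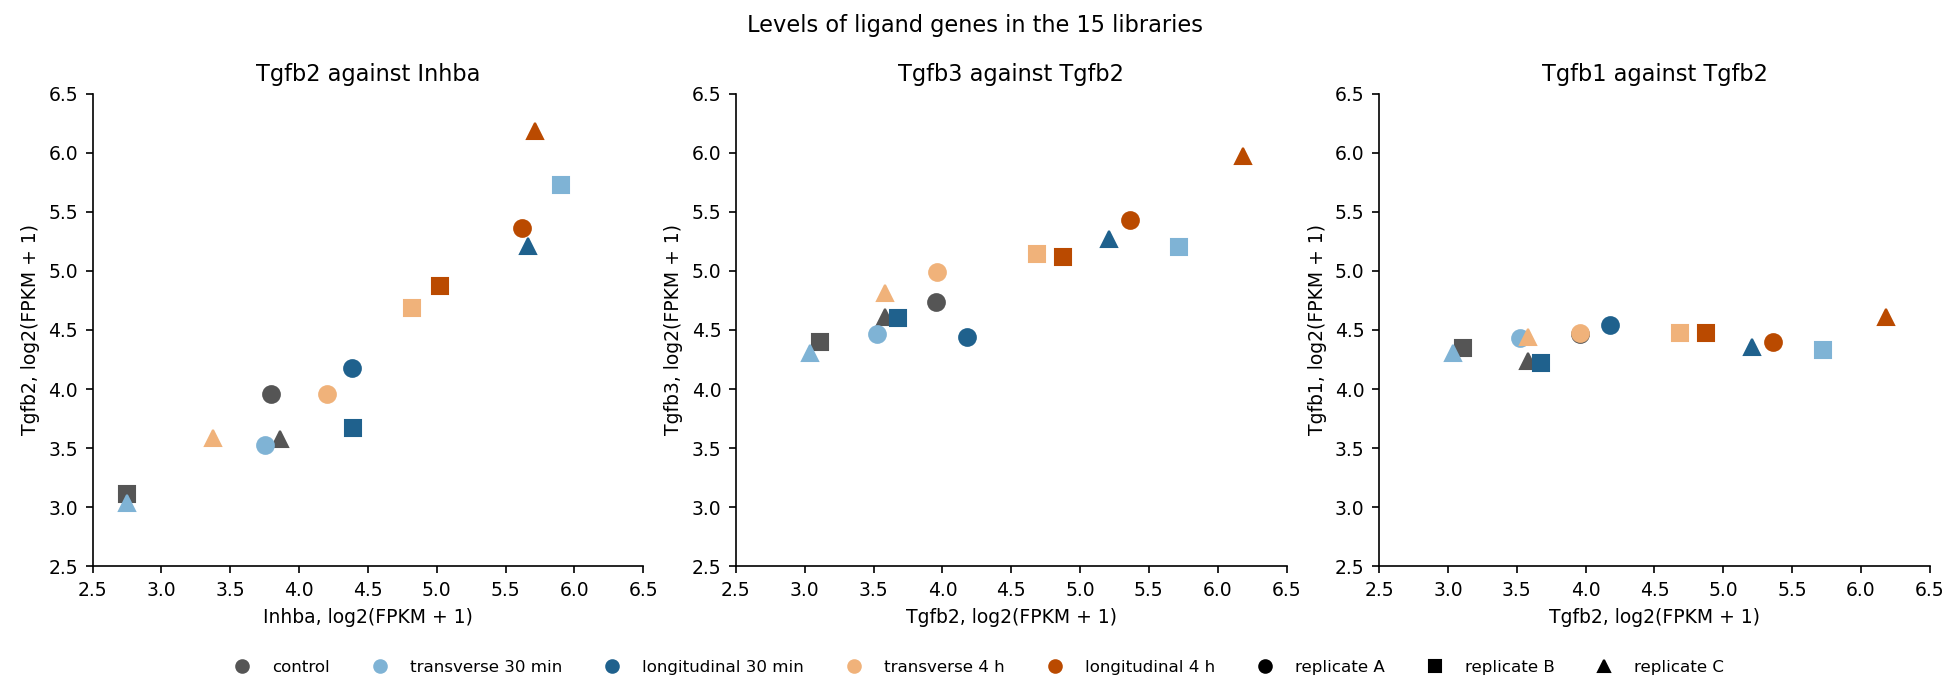
Levels of ligand genes, as log2(FPKM + 1), plotted against each other on equal axes; each point is 1 of the 15 libraries, coloured by group and shaped by library letter. Tgfb2 climbs with Inhba (r = 0.950) and Tgfb3 with Tgfb2 (r = 0.918), while Tgfb1 covers a narrow span along the range of Tgfb2 (r = 0.422).

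Entries whose symbols begin with Mir, Snor, Scarna or Gm and a digit were left out of the search for similar profiles. Among the other genes tested, the profile most like that of Tgfb2 over the 15 libraries was that of Itga5 (r = 0.993). Itga5 is the integrin alpha 5 subunit of the fibronectin receptor, and it was followed by Dnaja4, a heat shock co-chaperone (0.990). Inhba was most like Ears2, a mitochondrial glutamyl-tRNA synthetase (0.985), and Hbegf, an EGF receptor ligand (0.981). For Tgfb3 they were Trio and Picalm (both 0.970), a guanine nucleotide exchange factor and an endocytic adaptor. For Gdf15 they were Ppp1r15a (0.939) and Gadd45g (0.933), both stress-induced genes. For Skil they were the AP-1 subunit Fosl2 (0.951) and Abra (0.942), an actin-binding protein of striated muscle. For Smad7 they were Tmem100 (0.963) and Il4ra (0.947), for Smad6 Bcam (0.913) and Tnni3k (0.900), and for Bmp4 Glul and Wnt5b (both 0.923). Tgfb1 (Papd4, 0.900, and B4galnt1, 0.875) and Tgif1 (Mmp3, 0.871, and Nbl1, 0.856) had weaker best matches.

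The rest of the pathway was read from 8 lists that hold 106 other genes, of which 85 passed the filter. After 4 h of longitudinal stretch 11 of the 85 rose and 5 fell, together 18.8%, slightly under the 20.7% called among all genes. After 4 h of transverse stretch 10 of the 85 had an unadjusted p under 0.05, beside 10.6% of all genes. Limma called 0 of the 85 there, beside 0.0578% of all genes. The difference between these counts is thus also that of the whole table. The median log2 fold change of the 85 was 0.089 and -0.006 in these comparisons, beside -0.010 and 0.005 for all genes tested. After 30 min of longitudinal stretch 1 of the 85 rose (Thbs1), or 1.18%, beside 0.446% of all genes. For the mean of both axes at 30 min 2 rose and 0 fell, together 2.35%, beside 0.471% of all genes.

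Among 10 other ligand genes, limma called 3 after 4 h of longitudinal stretch, 1 higher and 2 lower, and the median log2 fold change of the 10 was -0.15. This count and those of the other lists below are to be read beside the 20.7% of all genes called in that comparison. Gdf6, a BMP-type growth factor of joint formation, rose from 2.22 ± 0.600 to 6.52 ± 1.496 FPKM (1.22 ± 0.30 on the log2 scale, adjusted p = 0.0171). Bmp7 fell from 9.48 ± 1.68 to 6.48 ± 0.569 FPKM (adjusted p = 0.0444), a call lost in 8 of the 15 fits that left out 1 library. Lefty1, a secreted Nodal antagonist, fell from 1.17 ± 0.121 to 0.837 ± 0.0658 FPKM (adjusted p = 0.0224). Without control B the calls of all 3 were lost.

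The receptors moved in both directions: of 12 tested, 1 rose, 2 fell and 9 were not called, with a median of 0.005. Tgfbr1, the type I TGF-beta receptor kinase, rose from 10.8 ± 0.692 to 15.4 ± 1.15 FPKM (0.48 ± 0.09, adjusted p = 0.00810), and kept its call in each of the 15 leave-outs. Tgfbr3, the coreceptor betaglycan that presents TGF-beta 2 to the signalling receptors, fell from 8.96 ± 2.09 to 3.60 ± 1.02 FPKM (-1.12 ± 0.34, adjusted p = 0.0385). Acvr1b, an activin type I receptor, fell from 14.1 ± 2.01 to 8.99 ± 0.889 FPKM (-0.59 ± 0.15, adjusted p = 0.0179). Of 6 signalling Smads 2 rose and 4 were not called: Smad1 from 7.30 ± 0.850 to 14.0 ± 3.30 FPKM (adjusted p = 0.0137) and Smad2 from 6.24 ± 0.458 to 10.4 ± 0.301 FPKM (adjusted p = 0.0265). Each of Tgfbr3, Acvr1b, Smad1 and Smad2 lost its call without control B and without longitudinal 4 h C, and their adjusted p reached at most 0.135 over the leave-outs.

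Of 11 other intracellular inhibitors 1 rose and 10 were not called. This was Smurf2, a ubiquitin ligase that works with Smad7, from 17.8 ± 0.548 to 22.02 ± 0.985 FPKM (0.29 ± 0.06, adjusted p = 0.00810), called in each of the 15 leave-outs. Tob1, an antiproliferative protein that represses BMP-activated Smads, rose at 30 min (mean of both axes) by 0.26 ± 0.05 (adjusted p = 0.0429), from 42.3 ± 2.21 FPKM in control to 50.6 ± 0.909 under transverse and 50.6 ± 1.03 under longitudinal stretch. That call was lost in 12 of the 15 leave-outs, although its 30 min libraries, at 49.9 FPKM or more, all lay above the controls. Of 8 extracellular antagonists, which bind ligands outside the cell, limma called 0, and their median was 0.42. An unadjusted p under 0.05 was found for 2 (Fst and Bmper), beside 37.4% of all genes. Fst, the activin antagonist follistatin, was at 1.38 ± 0.349 FPKM in control and 3.44 ± 0.745 FPKM after 4 h of longitudinal stretch (0.90 ± 0.36, adjusted p = 0.0940); it is named here after its values were seen.

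Genes that store or activate latent TGF-beta included Thbs1, which had the smallest adjusted p of the 85. Of 13 tested, 3 rose and 10 were not called, with a median of 0.09. Thbs1, thrombospondin 1, which can release TGF-beta from its latent complex, was at 159 ± 19.6 FPKM in control, 258 ± 73.9 and 384 ± 73.0 after 30 min of transverse and longitudinal stretch, and 225 ± 35.7 and 409 ± 59.6 after 4 h. It rose by 1.35 ± 0.20 on the log2 scale after 4 h of longitudinal stretch (adjusted p = 0.00438), in each of the 15 leave-outs. At 30 min (mean of both axes) it rose by 0.96 ± 0.18 (adjusted p = 0.0340), a call lost in 9 of the 15. Itgav, the integrin alpha V subunit that binds latent TGF-beta, rose from 16.98 ± 1.09 to 22.9 ± 1.11 FPKM (adjusted p = 0.0123), again in each of the 15. Lrrc32, a membrane anchor of latent TGF-beta, rose from 6.90 ± 1.68 to 11.6 ± 2.47 FPKM (adjusted p = 0.0265, lost in 4 of the 15 leave-outs).

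TGF-beta target genes numbered 20, of which limma called 3 higher and 0 lower after 4 h of longitudinal stretch, and their median was 0.14. Ctgf, a matricellular protein, rose from 192 ± 124 to 1218 ± 471 FPKM (2.88 ± 0.79, adjusted p = 0.0277, lost in 4 of the 15 leave-outs). Has2, a hyaluronan synthase, rose from 0.555 ± 0.0711 to 1.04 ± 0.174 FPKM (adjusted p = 0.0318, lost in 4 of the 15). Its controls were at most 0.637 FPKM, and it passed the filter of 1 FPKM only through stretched libraries, so this call is a description. The collagen gene Col1a1 and the fibronectin gene Fn1 of this list had log2 fold changes of -0.05 ± 0.09 and 0.08 ± 0.10 (adjusted p = 0.715 and 0.593). BMP target genes numbered 9, of which 0 were called higher and 1 lower, and their median was -0.20. Hey1, a Notch and BMP target, fell from 1.27 ± 0.250 to 0.683 ± 0.0182 FPKM (adjusted p = 0.0353, lost in 5 of the 15). Its longitudinal 4 h libraries were at most 0.697 FPKM, and it passed the filter of 1 FPKM only through other groups, so this call is a description.

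**Figure D5:**
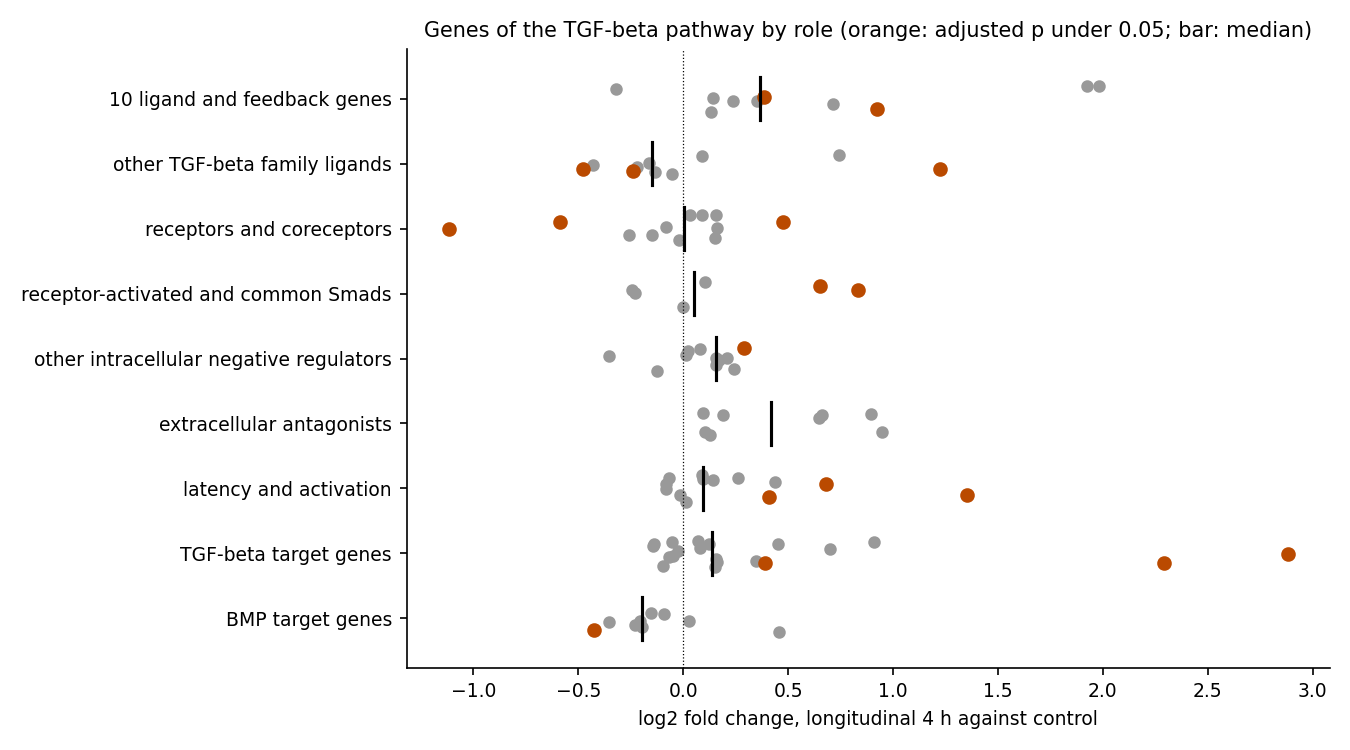
Log2 fold change after 4 h of longitudinal stretch against control (x axis) for the 10 genes and for the 8 lists of other pathway genes (rows); each point is a gene, orange where the adjusted p was under 0.05, and the bar is the median of the row. Ctgf (2.88), Inhba (1.98), Tgfb2 (1.92) and Thbs1 (1.35) lie far to the right and Tgfbr3 (-1.12) far to the left; the medians run from -0.20 for the BMP targets to 0.42 for the extracellular antagonists, with 0.37 for the 10 genes.

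The summed level of smooth muscle and pericyte markers moved with these values. Acta2, Tagln and Cnn1 made up most of the sum, with medians over the libraries of 431, 241 and 85.8 FPKM. The sum of the 7 markers was 495 to 822 FPKM in control, 478 to 834 after 4 h of transverse and 930 to 1581 after 4 h of longitudinal stretch, so that the longitudinal 4 h libraries lay above both other groups. Their median log2 fold change after 4 h of longitudinal stretch was 0.51, and limma called 0 of the 7. An unadjusted p under 0.05 was found for 2 (Tagln and Cspg4), beside 37.4% of all genes. Acta2 and Tagln stand in the TGF-beta target list as well, and the smooth muscle myosin gene Myh11 was between 0.294 and 1.90 FPKM in all libraries. Pdgfrb of the same marker list was between 32.2 and 39.8 FPKM in all libraries. The part of this marker shift in the results was not tested. Fibroblast, macrophage and cardiac myocyte markers had medians of 0.09, 0.15 and -0.11 in the same comparison, with 0 called, and of the endothelial markers 1 was called (Tek, lower).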

How the data were processed

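The authors deposited 1 table of 13657 genes for 15 libraries. Its header gives sample titles without a unit; the values were read as FPKM made by the authors, since the submitters' processing notes name Cufflinks 2.0.2, beside TopHat 1.4.1, FastQC and build mm9, with no order or role. Per the file headers, the deposited table also holds, for every stretch group against control, p-values, q-values and log2 fold changes, from a test that the sources do not name. Per the labels' protocols, libraries were made with a TruSeq poly(A) kit, which does not mark strand; 0 of the 10 genes overlaps another entry of the table. Start coordinates were taken as counting from 0, and 1 was added. There were 0 value columns of other series.

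Genes with at least 1 FPKM in at least 3 libraries (12114) were tested on log2(FPKM + 1) with limma 3.58.1 (R 4.3.3; trend and robust options on) in 1 fit of the 5 group means (10 residual degrees of freedom). This scale understates changes of low genes. P-values were two-sided, Benjamini-Hochberg adjusted over all genes tested within each of 11 comparisons, and called under 0.05. The fit was tested on simulated data. Error terms are SE for fold changes and SD (n = 3) for FPKM. Genes named beyond the 10 are, per list, up to 3 called genes of smallest p after 4 h of longitudinal stretch and up to 2 at 30 min, and the 2 genes of highest Pearson correlation with each of the 10; Fst, Col1a1 and Fn1 were added after their values were seen. Values of 1 called TGF-beta target gene are not reported here. The 10 genes and the lists were chosen with earlier results of these data known. Alternatives were a pseudocount of 0.1, no filter, median-ratio scaling, limma without trend and robust options, only the compared groups, a replicate block, each library left out in turn, and, chosen after seeing the data, transverse 30 min B and longitudinal 30 min C left out together (for correlations and spreads also with longitudinal 4 h C). Promoters are from RefSeq.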

Additional observations from a re-analysis of the deposited data

Results flagged for a closer look

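Smad6 differed in direction from the control mean between the durations of longitudinal stretch, although the libraries of both durations overlapped the controls. On the log2(FPKM + 1) scale its 3 libraries at 30 min lay above the control mean, by 0.253 to 0.788, and its 3 libraries at 4 h below it, by -0.536 to -0.094. The difference between the durations was tested: it was -0.759 (4 h minus 30 min, limma, adjusted p = 0.0900, with 0.0497 to 0.231 over the leave-outs), so it did not pass. It passed without transverse 30 min C, a library that enters through the shared estimate of spread.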

How the results depend on the processing

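No result for the 10 genes reversed: of 2420 alternative values 2396 stayed on their side of the threshold, 17 passed it newly and 7 lost it, and signs differed for 81 values, none of them called. For 4 h of longitudinal stretch the 2 calls became 4 with only the groups compared, 1 with the replicate block (Skil; Tgfb3 had adjusted p = 0.0563) and 4 without transverse 30 min B and longitudinal 30 min C together. Leave-outs gave 0 to 4: 0 without control B or longitudinal 4 h C, 1 without control C or longitudinal 4 h A, and 4 without transverse 30 min B or C. For both axes at 4 h the count of 0 became 4 without the pair of libraries (1456 over all genes) and 0 to 1 over the leave-outs. For 4 h against 30 min of longitudinal stretch it became 1 without the pair (Tgfb3, adjusted p = 0.0310) and 0 to 1 over the leave-outs (Smad6). The other 8 comparisons kept 0 of 10 under every alternative run. Shares of all genes called are not given here for the fits that raised the counts of the longitudinal comparisons. Those higher counts are thus not read as results about the 10 genes. Without trend and robust options Tgfb2 passed after 4 h of longitudinal stretch (adjusted p = 0.0459). The adjusted p over the leave-outs was 0.0123 to 0.178 for Tgfb2, 0.0150 to 0.201 for Inhba, 0.0142 to 0.129 for Tgfb3 and 0.00809 to 0.0672 for Skil. Over all genes the count of 2503 ran from 789 to 3249, that of 775 for both axes at 4 h from 6 to 1390, that of 2 between the axes at 4 h from 2 to 173, and that of 603 between the durations of longitudinal stretch from 65 to 919; 20 of the last were called with only the groups compared. Same-letter libraries did not deviate in a common direction (30 pairs, r from -0.502 to 0.513, 9 above 0.1 and 10 below -0.1). Deviations from means of 3 libraries cannot decide whether a letter marks a shared preparation, which the sources do not state. The replicate block is therefore given as an alternative and not as the main fit. Of the other pathway genes called after 4 h of longitudinal stretch, Ctgf, Has2, Hey1, Tgfbr3 and Bmp7 lost the call with the replicate block, and Ctgf, Lrrc32 and Lefty1 with only the groups compared; both calls at 30 min (Thbs1 and Tob1) were lost under either. A left-out library leaves 2 in its group. Depth per library is unknown from FPKM.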

Other observations

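Between the durations of longitudinal stretch few other pathway genes were called. Of the 85 pathway genes tested, 3 were higher at 4 h than at 30 min (Bmpr2, Smurf2 and Lrrc32) and 3 lower (Bmp7, Lefty1 and Id1), and 79 were not called (limma). The 6 called were 7.06% of the 85, beside 4.98% called among all genes tested. With only the groups compared, 20 genes of the whole table were called in place of 603. The 6 genes are named after their values were seen, and Lefty1 lay under the 1 FPKM of the filter in every longitudinal 4 h library. Id1, a BMP-induced inhibitor of differentiation factors, was at 12.2 ± 4.66 FPKM in control, 26.7 ± 5.21 after 30 min and 10.7 ± 3.48 after 4 h of longitudinal stretch. Under transverse stretch it was at 19.9 ± 8.13 and 8.44 ± 0.931 FPKM. Bmpr2, the type II BMP receptor, was at 14.6 ± 0.357 FPKM after 30 min and 17.5 ± 0.444 after 4 h of longitudinal stretch, against 15.5 ± 0.246 in control (SD, n = 3 each).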
